A study of Mus musculus with 8 samples.

Results

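Matrix metalloproteinases (MMPs) were followed through the fibroblast classes of inflamed and healthy mouse synovium, the membrane that lines joints. The 8 genes were taken by symbol from the 32285 genes of the count files, and they were Mmp2, Mmp3, Mmp9, Mmp10, Mmp12, Mmp13, Mmp14 and Mmp19. Counts of unique molecular identifiers (UMIs), each standing for 1 captured transcript, were summed per animal and per annotated cell class. The cells came from ankle and wrist joints of 17 animals aged 8 to 10 weeks, pooled with hashtag antibodies in 4 single-cell RNA sequencing libraries. All 14 arthritic animals carried the human TNF transgene hTNFtg197 (strain B6-Tg(TNF)197Gkl) and had received Il23mc for 9 days. Of these, 3 were given no inhibitor, 3 received an antibody against human TNF (TNFi), 3 received an antibody against mouse IL-17A (IL-17i), and 5 without inhibitor were sorted as CD45- FAP+ Pdpn+ cells. The other 3 arthritic groups were sorted as viable CD45- GR-1 cells, 1 group per library, together with 1 untreated wild-type (WT) animal in each library, which gave 3 healthy animals. The transgene and Il23mc are shared by every arthritic animal, so no group separates them, and the anti-TNF antibody is directed at the transgene's product.

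MMPs are zinc-dependent proteases made as inactive precursors, which other proteases activate and which tissue inhibitors of metalloproteinases (TIMPs) block. In arthritic joints, synovial fibroblasts are a known source of the enzymes that degrade cartilage proteoglycan and collagen. Mmp3 and Mmp10 encode the stromelysins, which cleave proteoglycans and activate other MMP precursors. Mmp13 encodes the collagenase that cleaves type II collagen of cartilage, Mmp2 and Mmp9 the gelatinases, which digest denatured collagen, Mmp12 an elastase best known from macrophages, Mmp14 a membrane-anchored enzyme that activates the Mmp2 precursor, and Mmp19 a secreted enzyme that cleaves basement membrane proteins.

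On the mm10 build, Mmp13 (chr9:7272514-7283331), Mmp12 (chr9:7344381-7369499), Mmp3 (chr9:7445822-7455975) and Mmp10 (chr9:7502352-7510240) lie on the same strand within 237727 bases of chromosome 9. The other 4 lie on other chromosomes, Mmp14 at chr14:54431612-54445364, Mmp2 at chr8:92827291-92853420, Mmp9 at chr2:164940780-164955850 and Mmp19 at chr10:128790910-128800824, all on the plus strand. AP-1, the dimer of Fos and Jun proteins, is a known activator of several MMP promoters, so the start-site windows were searched for its motif TGANTCA, which reads the same on both strands. RefSeq promoter windows (GRCm38.p6, 250 bases before to 50 after the start) matched 5 members in 6 entries, with none for Mmp2, Mmp9 and Mmp19. The motif occurred once in the windows of Mmp13, Mmp3, Mmp10 and the second of the 2 Mmp12 starts, and its letters were in neither the first Mmp12 window nor the Mmp14 window. Of 32851 RefSeq promoter windows of this length, 7.81% held it. The 4 chromosome 9 windows with the motif and the Mmp14 window without it are shown, and capitals mark TGANTCA. All of these genes, with and without the motif, were called higher in untreated arthritic than in healthy animals.

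Mmp13 (chr9:7272264-7272563, strand +): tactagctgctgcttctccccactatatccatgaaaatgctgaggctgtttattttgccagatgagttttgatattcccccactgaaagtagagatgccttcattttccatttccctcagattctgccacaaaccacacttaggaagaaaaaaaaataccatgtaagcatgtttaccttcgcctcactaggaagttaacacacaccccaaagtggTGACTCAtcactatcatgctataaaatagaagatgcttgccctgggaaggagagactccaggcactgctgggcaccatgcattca
Mmp12, second start (chr9:7347124-7347423, strand +): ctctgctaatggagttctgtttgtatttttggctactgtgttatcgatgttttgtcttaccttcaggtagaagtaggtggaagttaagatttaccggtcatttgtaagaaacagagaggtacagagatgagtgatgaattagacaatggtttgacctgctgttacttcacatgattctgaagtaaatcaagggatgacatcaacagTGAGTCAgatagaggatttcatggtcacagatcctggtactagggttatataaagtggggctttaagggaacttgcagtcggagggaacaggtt
Mmp3 (chr9:7445572-7445871, strand +): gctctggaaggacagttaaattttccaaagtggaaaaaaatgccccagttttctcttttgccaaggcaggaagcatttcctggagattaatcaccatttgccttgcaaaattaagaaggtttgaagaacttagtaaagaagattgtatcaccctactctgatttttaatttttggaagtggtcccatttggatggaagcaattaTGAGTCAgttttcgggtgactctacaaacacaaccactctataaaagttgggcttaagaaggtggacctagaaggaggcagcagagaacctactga
Mmp10 (chr9:7502092-7502391, strand +): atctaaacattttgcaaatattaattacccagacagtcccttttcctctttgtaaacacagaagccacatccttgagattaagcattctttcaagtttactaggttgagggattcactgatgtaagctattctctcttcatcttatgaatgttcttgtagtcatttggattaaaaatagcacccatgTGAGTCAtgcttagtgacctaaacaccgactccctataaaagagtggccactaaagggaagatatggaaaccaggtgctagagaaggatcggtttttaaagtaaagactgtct
Mmp14 (chr14:54431348-54431647, strand +): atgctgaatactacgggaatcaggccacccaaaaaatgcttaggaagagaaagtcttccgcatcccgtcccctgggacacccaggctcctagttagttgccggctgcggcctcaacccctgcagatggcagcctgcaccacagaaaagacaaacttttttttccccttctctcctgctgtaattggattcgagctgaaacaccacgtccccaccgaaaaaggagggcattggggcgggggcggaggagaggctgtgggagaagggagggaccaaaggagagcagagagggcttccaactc

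The motif's first base lay at -35 from the start in Mmp13, -44 in the second Mmp12 window, -46 in Mmp3 and -63 in Mmp10, with TGACTCA in Mmp13 and TGAGTCA in the other 3. The letters TATAAA, the core of a TATA box, were found once on either strand in each of these 4 windows, without overlap with TGANTCA, against 13.6% of all windows. Their first base lay at -16 in Mmp13, -7 in Mmp3, -29 in Mmp10 and 4 in the second Mmp12 window, there after the start. All distances are from the RefSeq starts, which were not checked against reads here. AACCACA, a Runx motif searched on both strands, was found in Mmp13 alone among the 6 windows, at -119, against 5.27% of all. These matches describe letters, and no binding was measured here.

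The deposited annotation placed 24227 of 47658 barcodes in 7 classes, of which 5 are fibroblast classes (Lining, Mmp3+, Il6+, Cd200+ and Pi16+, 21731 cells) and 2 are Chondrocytes and Osteoblasts. Fibroblast depth ran from 4508588 to 36786390 UMIs per animal, lowest in the healthy animals (4508588 to 7307067 UMIs from 413 to 749 cells), so healthy values carry the largest counting error. All 5 lining markers, all 4 Pi16+ markers and all 6 osteoblast markers were highest in the class of that name. Cd200 itself was highest in Osteoblasts (339 CPM) and next in the Cd200+ class (215 CPM). Chondrocytes held 63.0 CPM of Acan and 33.5 CPM of Col2a1, the cartilage matrix genes, beside 7973 CPM of the fibroblast collagen Col1a1, so they are called here by their annotation only. Library pairs shared 32 to 51 barcodes. The healthy animals stood apart in their labels' checks: hashtag 4 had the highest raw count in 34.5%, 22.4% and 11.4% of the cells of healthy animals 1, 2 and 3. After a centred log-ratio of each hashtag over the annotated cells of its library, hashtag 4 ranked first in 100% of the cells of each. Y-linked UMIs were found in 2.83%, 23.3% and 16.8% of their cells beside Xist in 92.5%, 70.8% and 70.6%. The cells of healthy animals 2 and 3 thus did not carry the transcripts of 1 sex only, and comparisons with healthy were repeated with Xist-only cells and without both animals. By these transcripts each arthritic group also held both sexes, in parts that differed between groups. No fit held sex as a term, so the part of sex in the differences below was not tested. The fits below use the 12 animals of the unsorted libraries in 1 model, or 8 animals for the FAP+ sort, and 1 group of arthritic animals fills each library. A fit with library as a term was possible because each of these libraries holds a healthy animal, so it rests on 1 healthy animal per library, and between arthritic groups it called no gene (edgeR, with 799 to 1107 of 14348 genes at an unadjusted p under 0.05). The p-values measure only the spread between these animals. CPM stands for the gene's UMIs per 1000000 UMIs summed over the cells named, without further scaling, and counts are of transcript 3′ ends, so levels are compared within a gene and not between genes. In summed fibroblasts, fewer cells of a type and less RNA per cell cannot be told apart.

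First, to ask which MMPs accompany arthritis, fibroblasts of untreated arthritic animals were compared with those of healthy ones. Of the 8 members, 7 rose and none fell, where 14.4% of 14348 genes were called higher and 28.7% were called in either direction. The members' median log2 fold change was 2.73, against 0.01 over all genes tested. The members were chosen with earlier results of these data known, so these and later counts of members are a description. Of 6 other MMP genes tested, 0 were called higher and 1 lower. The stromelysin Mmp3 stood at 1250, 1451 and 1007 CPM in healthy animals 1, 2 and 3 and at 14509, 14479 and 15096 CPM in the untreated arthritic ones. The lowest arthritic animal was far above the highest healthy one. The share of all genes whose groups did not overlap was not counted, here or in the comparisons below. The log2 fold change was 3.78 ± 0.21 (SE, adjusted p = 1.08e-07). Mmp10, the second stromelysin, was rare: 2 UMIs in all healthy fibroblasts against 137 in the untreated arthritic ones, a ratio of CPM of 15.02 (95% exact interval 4.08 to 125, counting error only; fitted adjusted p = 0.000949).

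The collagenase Mmp13 was found at 183, 302 and 145.5 CPM in healthy animals and 1016, 1123 and 1473 CPM in untreated arthritic ones. Again the groups did not overlap, and the fold change was 2.72 ± 0.24 on the log2 scale (adjusted p = 4.21e-06). Mmp12, the elastase, stood at 4.24, 9.11 and 11.1 CPM in healthy and at 31.0, 61.6 and 59.2 CPM in untreated arthritic animals. Animal 1 was the lowest in each group, and the ranges did not overlap (log2 2.91 ± 0.42, adjusted p = 0.000201). Markers of myeloid cells were higher in the same fibroblasts: 9 macrophage genes summed to 83.3 to 100.1 CPM in untreated against 18.6 to 24.4 CPM in healthy animals, most of it Cd14 and Lyz2, with Adgre1 at 0 in healthy. The 8 neutrophil genes summed to 44.5 to 54.5 against 17.7 to 20.1 CPM, with Csf3r and Ltf at 0 in healthy, and the 6 osteoclast genes to 44.5 to 63.2 against 12.9 to 18.04 CPM, most of it Acp5, with Dcstamp and Oscar at 0 in untreated and Ocstamp and Calcr at 0 in healthy animals. Without cells that held a UMI of Ptprc or of a defining macrophage, neutrophil or osteoclast gene, mean Mmp12 was 47.4 CPM untreated and 8.23 CPM healthy, beside 50.6 and 8.15 CPM in all cells. Only 51 of the 1417 fibroblasts with an Mmp12 UMI, over all groups, were such cells, so this filter could move the means little. The part of myeloid cells was not tested.

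Of the gelatinases, Mmp2 moved least. It stood at 938, 1042 and 993 CPM in healthy animals and 959, 1195 and 1103 CPM in untreated arthritic animals, and these ranges overlapped. Its log2 fold change of 0.34 ± 0.13 did not pass the threshold (adjusted p = 0.0713), and it did with DESeq2 (0.047), without a filter on low counts (0.041) and over all 7 classes (0.02). Mmp9 had 4 UMIs in healthy fibroblasts and 117 in untreated arthritic ones, a ratio of CPM of 6.41 (95% exact interval 2.44 to 23.9, counting error only; fitted adjusted p = 0.00408). The membrane-anchored Mmp14 rose from 226, 171 and 159 CPM to 327, 315 and 326 CPM (log2 1.01 ± 0.15, adjusted p = 0.000259). Mmp19 rose from 30.2, 28.2 and 37.0 CPM to 87.4, 76.9 and 78.3 CPM (log2 1.56 ± 0.26, adjusted p = 0.000664). For both, every arthritic animal lay above every healthy one. These 7 members passed in each alternative fit, among them those without any 1 of the 6 animals, with healthy cells limited to those with Xist and no Y-linked UMI, and without healthy animals 2 and 3.

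**Figure D1:**
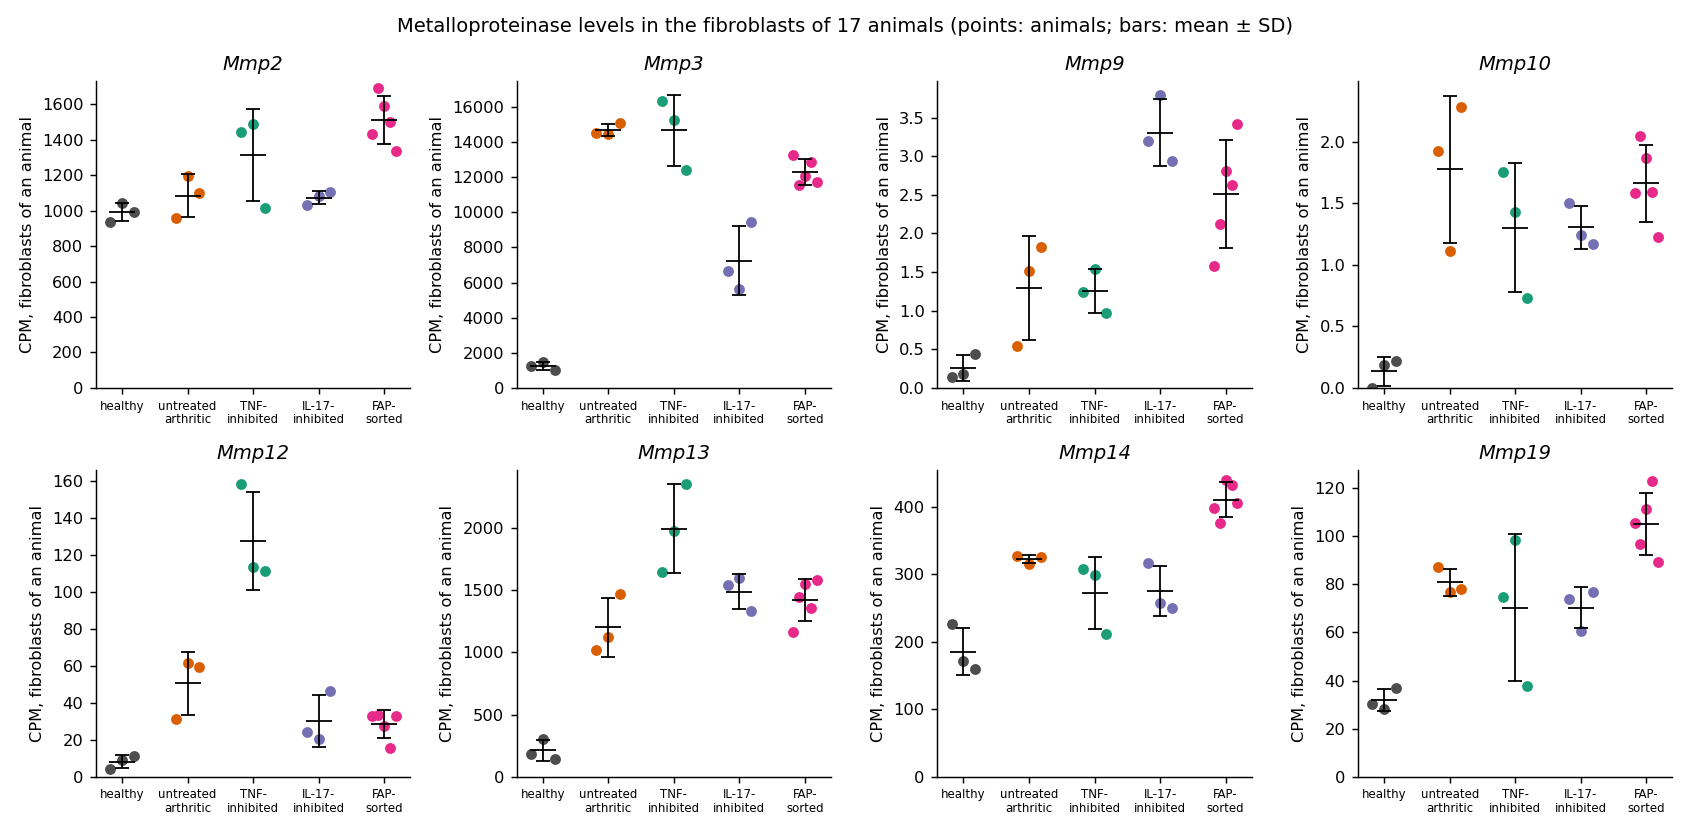
Level of each of the 8 MMP genes in the fibroblasts of each animal, in CPM (linear axes from 0, 1 point per animal, a bar at each group mean). Mmp3 separated healthy animals (1007 to 1451 CPM) from all arthritic ones, IL-17-inhibited animals lay lower than the other arthritic animals for Mmp3 (5618 to 9448 CPM), and TNF-inhibited animals lay highest for Mmp12 (111 to 159 CPM).

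Free RNA in the droplets can set a floor under these levels. Barcodes outside the annotation that carried at least 3 endothelial markers and no Ptprc, cells that should make little Mmp3, held 1802, 2278 and 1199 CPM of it in the untreated, TNFi and IL-17i libraries, with medians over barcodes of 688, 514 and 283 CPM. Their median depth was 11392, 10288 and 10038.5 UMIs, beside 13991, 15604 and 16039.5 per annotated cell. They also held 448, 1050 and 877 CPM of the fibroblast gene Col1a1 and 723, 2378 and 1560 CPM of the lining gene Prg4. Whether free RNA or fibroblasts in the same droplets gave these levels was not tested. Healthy fibroblast Mmp3 (1007 to 1451 CPM) was below the summed endothelial level of the same library in all 3 animals and above the medians over barcodes. Outside the Mmp3+ class the healthy level is therefore not read as expression. Healthy Mmp3+ cells held 7820 to 14028 CPM and a mean of 25.8% of the healthy Mmp3 UMIs. Within a library the ratio of Mmp3 to Mmp13 UMIs was 14.4, 7.41 and 4.23 in the endothelial barcodes, 37.0, 19.0 and 29.8 in Lining cells and 0.201, 0.103 and 0.148 in Osteoblasts, so the classes did not share 1 ratio. In healthy animal 2, Mmp3 was 824 CPM in 354 cells with Xist alone, 2067 CPM in 107 cells with Y-linked UMIs alone and 3911 CPM in 80 cells with both or neither. The part of these cells in the healthy level was not tested beyond the refits named above, in which the Mmp3 fold change was 4.11 on the log2 scale with Xist-only healthy cells.

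Next, the levels were followed through the 7 classes. The classes were clustered from these same cells and one is named for Mmp3, so differences between classes are a description. In untreated arthritic animals Mmp3 was highest in the Mmp3+ class (24079, 22476 and 22536 CPM) and next in Lining (14116, 17910 and 16993 CPM). Chondrocytes (4605 ± 682 CPM, SD, n = 3) and Cd200+ (4402 ± 661 CPM) followed and overlapped each other. Il6+ (2911 ± 366 CPM), Osteoblasts (1901 ± 741 CPM) and Pi16+ (816 ± 159 CPM) came last, each apart from the next. In healthy animals only the Mmp3+ class stood out, at 12354, 14028 and 7820 CPM from 16 to 24 cells per animal. The other 6 healthy classes had means of 499 to 1312 CPM, inside the range of the endothelial medians and sums given above (283 to 2278 CPM).

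Mmp13 had another order. It was highest in Osteoblasts in every group, with 2708, 2450 and 4272 CPM in healthy and 17709, 9373 and 12192 CPM in untreated arthritic animals. Bone-forming cells are a known site of this collagenase. Cd200+ (2022 ± 538 CPM) and Mmp3+ (1942 ± 274 CPM) came next in untreated arthritis and overlapped. Chondrocytes (654 ± 457 CPM) and Lining (475 ± 88.3 CPM) followed, overlapping each other, and Il6+ (129 ± 24.3 CPM) and Pi16+ (89.9 CPM) were lowest, near the 125 CPM of the endothelial barcodes of that library. Lining and Mmp3+ cells, the highest for Mmp3, thus differed in Mmp13: 376 to 546 CPM in the 3 untreated animals' Lining cells against 1756 to 2256 CPM in their Mmp3+ cells.

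Mmp12 was concentrated in the Mmp3+ class in untreated arthritis (59.0, 109.6 and 92.9 CPM), while the other 6 classes had means of 1.59 to 16.1 CPM and each of these overlapped its neighbour in the order. In healthy animals the Mmp3+ class held 117, 64.0 and 4.90 CPM, a spread that covered the arthritic values. Mmp2 was spread widely. It was lowest in Lining in both groups (298 CPM healthy, 573 CPM untreated), highest in healthy Cd200+ cells (1455 CPM, overlapping Osteoblasts at 1341 CPM) and highest in arthritic Chondrocytes (2356 ± 394 CPM), which stood apart from Cd200+ at 1324 CPM.

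Mmp14 was flat among healthy classes, with the 6 highest class means between 135 and 203 CPM and every neighbour overlapping, and Chondrocytes apart at 92.8 CPM. In untreated arthritis the top was held by Osteoblasts (498 ± 139 CPM), Chondrocytes (411 CPM) and Mmp3+ (391 CPM), and Lining was lowest at 225 CPM. Mmp19 was led by Il6+ in healthy animals (42.4 CPM) and by Mmp3+ in untreated arthritis (93.7 CPM), each overlapping the next class. Mmp9 was highest in Osteoblasts, with 24.6, 10.4 and 6.03 CPM in untreated animals, and no other class mean passed 1.85 CPM there. Mmp10 was highest in Mmp3+ (3.06 CPM), overlapping the next class.

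**Figure D2:**
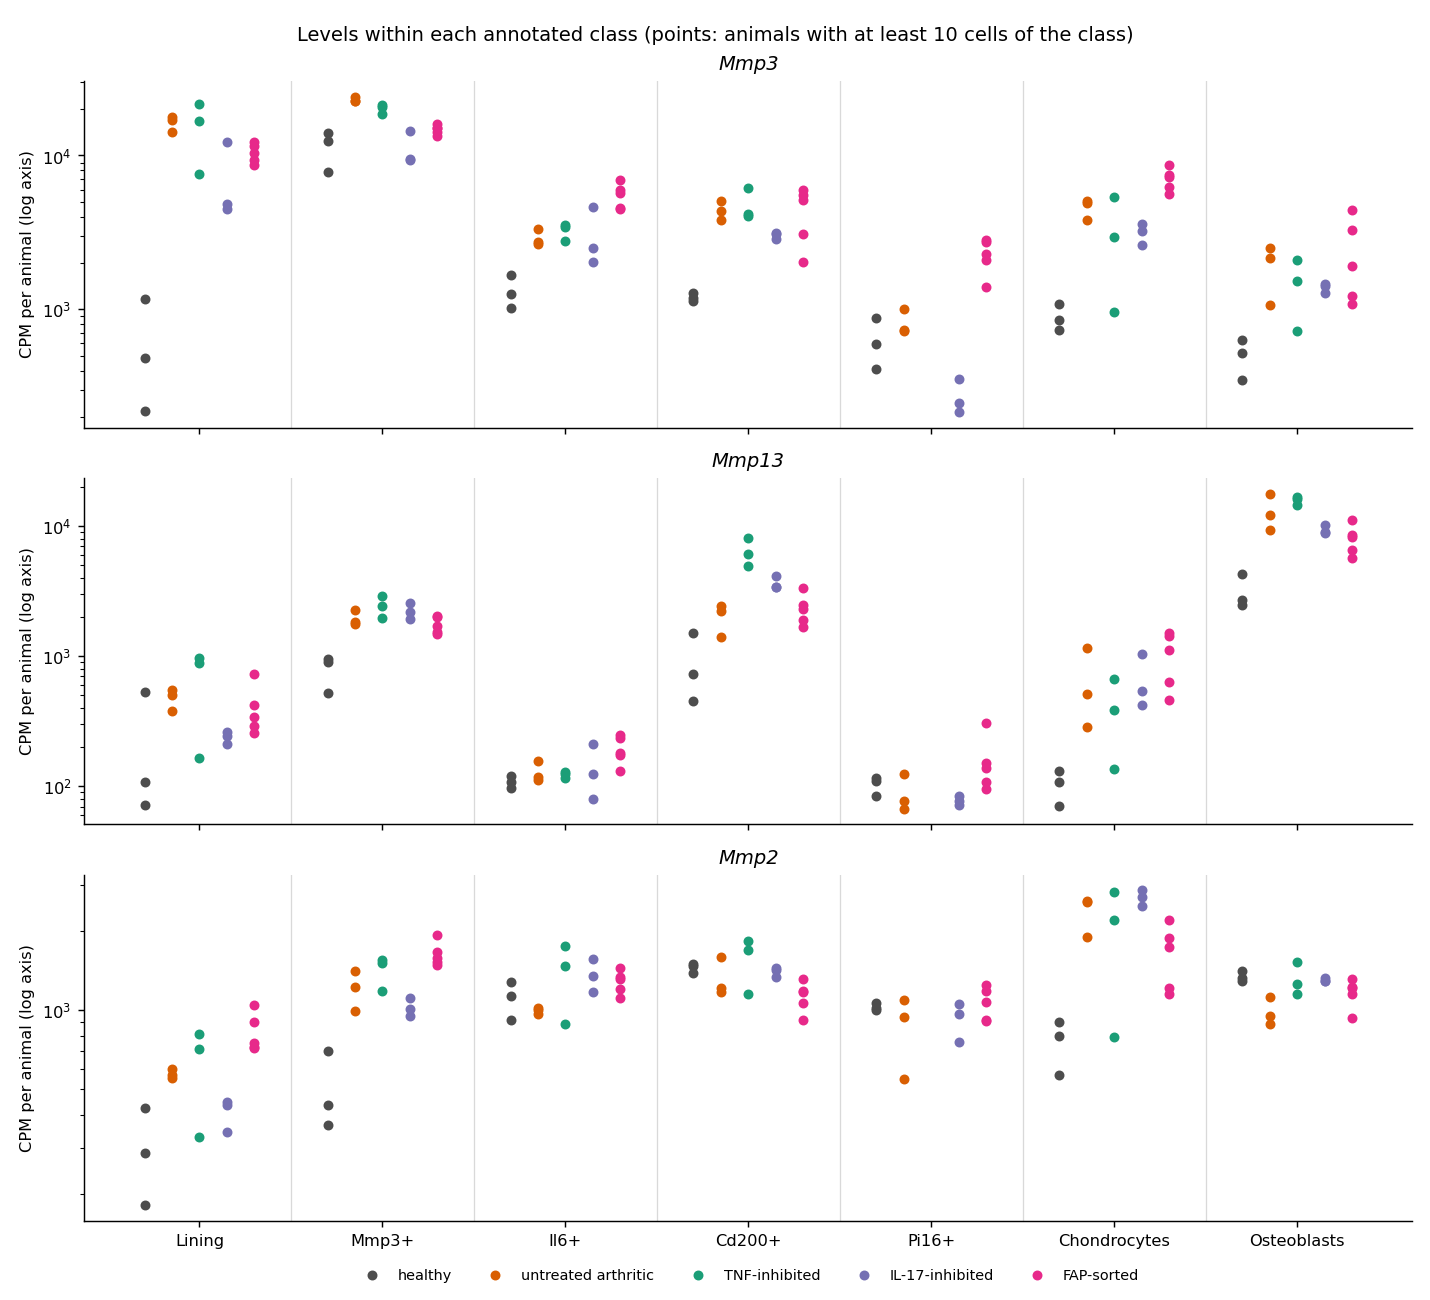
Mmp3, Mmp13 and Mmp2 in CPM (log axes) within the 7 annotated classes, 1 point per animal with at least 10 cells of the class, coloured by group. In Lining, untreated arthritic animals (14116 to 17910 CPM of Mmp3) lay above healthy ones (218 to 1171 CPM), and Mmp13 was highest in Osteoblasts.

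A level summed over many cells does not show how cells share it, so each cell was thinned to 3000 UMIs. In untreated arthritis the median Mmp3+ cell held 58.2 Mmp3 UMIs (mean of 3 animals' medians), with 10th and 90th percentiles of 5 and 136. Lining cells were more uneven, with a median of 20 UMIs, animal medians from 8 to 31, and percentiles of 0.867 and 123. Healthy Lining cells had a median of 1 UMI and a 90th percentile of 2.57. Under IL-17 inhibition the median Lining cell held 1.17 UMIs while the 90th percentile was 59.0, so the class level rested on a minority of cells. In the same library the median Mmp3+ cell held 19.2 UMIs. For Mmp13, the median untreated Osteoblast held 37.7 UMIs and the median Mmp3+ cell 0, with a 90th percentile of 17.8. A thinned Mmp13 UMI was found in 92.8% ± 6.99 of untreated Osteoblasts, 42.4% ± 1.90 of Mmp3+ cells and 45.0% ± 2.92 of Cd200+ cells (SD, n = 3). Mmp3 itself was found in 97.8% of thinned untreated Mmp3+ cells but also in 63.8% of healthy Lining cells, beside the Mmp3 of the endothelial barcodes given above. Mmp12 was carried by few cells: 5.66% ± 0.645 of thinned Mmp3+ cells in untreated arthritis.

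Tests within each class asked whether members changed where class shares do not enter. Of 45 pairs of member and class with enough counts, 22 were higher in untreated arthritis and none lower. Every class had at least 1 called member, and the share of all genes called ran from 3.43% in Pi16+ to 13.2% in Lining. In the Mmp3+ class, where 6.84% of genes were called, 5 of 8 members rose. Mmp2 went from 702, 438 and 367 CPM to 996, 1405 and 1221 CPM there (log2 1.75 ± 0.21, adjusted p = 0.000236). That gene did not pass in summed fibroblasts, and here every arthritic animal lay above every healthy one. Mmp14 (log2 1.52 ± 0.17), Mmp13 (1.76 ± 0.22) and Mmp3 (1.47 ± 0.23) also rose in the class. The healthy values there rest on 16, 17 and 24 cells, with median depths of 3548, 12454 and 3830 UMIs. These are too few for the fit with at least 30 cells. As a mean over cells, healthy Mmp13 in the class was 1821 CPM, against 791 CPM from summed counts. That is near the 1942 CPM of untreated summed counts, and the Mmp13 change was not tested by that measure. Mmp19 rose by 2.91 ± 0.63 (adjusted p = 0.0111), and did not pass without healthy animal 2 (0.068) or 3 (0.073).

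In Lining, 3 of 6 tested members rose. Mmp3 went from 1171, 482 and 218 CPM in healthy to 14116, 17910 and 16993 CPM in untreated arthritic animals, the steepest class change of the gene (log2 4.93 ± 0.57, adjusted p = 2.44e-05). Mmp14 rose by 0.95 ± 0.21 (adjusted p = 0.00591). Mmp2 rose by 1.15 ± 0.29 (adjusted p = 0.0133; 0.057 without healthy animal 3). Lining cells numbered only 23 to 49 per healthy animal.

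In Il6+, where 6.91% of genes were called, Mmp3 was the only 1 of 6 members past the threshold (log2 1.23 ± 0.25, adjusted p = 0.00898; 0.053 without healthy animal 3). In Cd200+ (4.27% of genes), 3 of 7 rose: Mmp3 by 1.96 ± 0.17 on the log2 scale (adjusted p = 4.91e-06), Mmp13 by 1.26 ± 0.33 (0.0372) and Mmp14 by 0.90 ± 0.22 (0.0282). The Mmp13 call ended without healthy animal 1 (0.12) or 3 (0.13) or untreated animal 2 (0.14) or 3 (0.096), and the Mmp14 call ended without any 1 of the 6 animals (0.051 to 0.11). In Pi16+ the single called member was Mmp14 (log2 0.84 ± 0.21, adjusted p = 0.0437), and that call was lost without healthy animal 2 (0.19) or 3 (0.22) or untreated animal 1 (0.17) or 3 (0.15).

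Outside the fibroblasts the same genes moved too. In Chondrocytes (12.9% of genes called), 5 of 6 members rose, by log2 1.69 for Mmp2, 2.43 for Mmp3, 2.71 for Mmp13, 2.20 for Mmp14 and 3.41 for Mmp19. In Osteoblasts (8.93%), 4 of 7 rose, by 2.06 for Mmp3, 2.17 ± 0.23 for Mmp13 (adjusted p = 2.7e-05), 1.55 for Mmp14 and 2.79 for Mmp19. Untreated Osteoblasts held 1070 to 2492 CPM of Mmp3, around the summed 1802 CPM of that library's endothelial barcodes and above their median of 688 CPM. Healthy Osteoblasts, from animals pooled with the arthritic ones, held 347 to 632 CPM (mean 499 CPM). The part of free RNA in this rise was not tested, and the rise is not read as expression. Of the 22 pairs, 16 were called in every fit that left out 1 animal, and with at least 30 cells per animal 11 of 12 testable pairs were called.

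Whether the disease effect differed between classes was tested directly over Lining, Mmp3+, Il6+ and Cd200+, with the animal as a block. It differed for 3 of 8 members, against 8.72% of 12196 genes. For Mmp3 (adjusted p = 8.5e-07) the log2 effect was 3.85 larger in Lining than in Il6+, 0.30 larger in Mmp3+ and 0.69 larger in Cd200+. The classes were clustered from these same cells and one is named for Mmp3, with a healthy mean of 11401 CPM there. Healthy Lining and Il6+ means (624 and 1312 CPM) were in the range of the endothelial barcodes. The Mmp3 p-value is therefore read as a description. For Mmp2 (adjusted p = 3.05e-06) it was 1.30 larger in Lining and 1.88 larger in Mmp3+ than in Il6+, and 0.05 larger in Cd200+. For Mmp14 (adjusted p = 0.001) it was 0.53, 1.06 and 0.46 larger in these 3 classes. No such difference was detected for Mmp13 (adjusted p = 0.25), Mmp19 (0.249), Mmp12 (0.479), Mmp9 (0.805) or Mmp10 (0.882).

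The classes also changed in size, and the UMIs of each gene moved with them. In healthy animals the Mmp3+ class held 2.72% of all annotated UMIs and 25.8% of Mmp3 UMIs. In untreated arthritis it held 47.1% of all UMIs and 80.0% ± 1.97 of those of Mmp3 (SD, n = 3), 89.8% of Mmp12, 60.9% of Mmp13 and 48.2% of Mmp2. Pi16+ cells, which held 39.7% of healthy Mmp2 UMIs, fell to 0.86% of all UMIs. Osteoblasts held 39.2% of healthy and 25.003% of untreated arthritic Mmp13 UMIs from 3.06% of all arthritic UMIs.

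To describe level and class size apart, each group's class levels were weighted by the other group's class shares of UMIs. Healthy levels with arthritic shares gave 6556 ± 1812 CPM of Mmp3 and arthritic levels with healthy shares gave 4337 ± 81.2 CPM, between the measured 1236 ± 222 and 14695 ± 348 CPM (SD, n = 3). Both exchanges thus raised Mmp3, and neither reached the arthritic value. Mmp13 behaved alike, with 512 ± 162 and 383 ± 47.3 CPM between 210.3 and 1204 CPM. For Mmp14 the shares made little difference: 183 CPM with healthy levels and 299 CPM with arthritic levels, beside 185 and 323 CPM. For Mmp2 the healthy levels with arthritic shares gave 735 CPM, below the 991 CPM of healthy fibroblasts. For Mmp12, as for Mmp3 and Mmp13, the exchange of shares gave the higher value. It was 37.9 ± 24.2 CPM from healthy levels with arthritic shares and 10.9 CPM from arthritic levels with healthy shares, next to 50.6 CPM measured. These are sums of the measured levels and carry no test, and the healthy Mmp3+ level rests on 16 to 24 cells per animal.

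**Figure D3:**
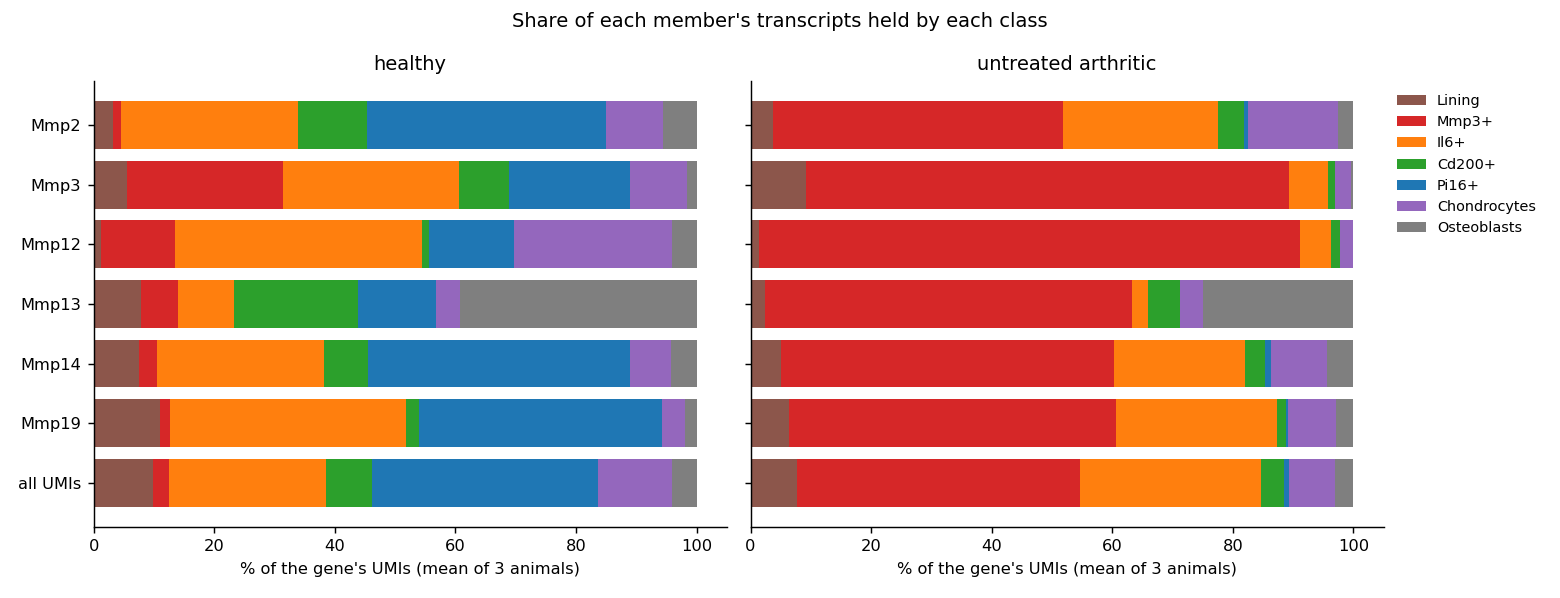
Share of each gene's UMIs held by the 7 classes in healthy and untreated arthritic animals (stacked bars to 100%, means of 3 animals), with all annotated UMIs beside them. The Mmp3+ class held 25.8% of healthy and 80.0% of untreated arthritic Mmp3 UMIs, and Osteoblasts held 39.2% of healthy Mmp13 UMIs.

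The inhibitor groups were then set against untreated arthritis, which serves as control for both. Under TNF inhibition 1 of 8 members was higher and none lower, where 2.53% of genes were called higher and 3.02% lower, 5.55% in all. That was Mmp12, at 159, 114 and 111 CPM in the 3 TNFi animals against 31.0, 61.6 and 59.2 CPM untreated. All TNFi animals lay above all untreated ones (log2 1.40 ± 0.33, adjusted p = 0.0314). Deviations of same-numbered animals of these 2 groups correlated at 0.132 to 0.273, and no label ties the animals. With the hashtag number as a block 2 members were called, Mmp12 (adjusted p = 0.046) and Mmp13. The Mmp12 call ended without untreated animal 1 (adjusted p = 0.12), 2 (0.073) or 3 (0.076), without TNFi animal 1 (0.066) or 2 (0.073), and with library as a term (log2 0.25). In Lining, Mmp12 was 248, 128 and 7.49 CPM under TNFi and 0, 21.7 and 5.60 CPM untreated, so TNFi animal 3 lay within the untreated range (log2 3.68 ± 0.76, adjusted p = 0.0261 where 1.33% of Lining genes were called; lost without untreated animal 1 or 3 or TNFi animal 1 or 2, adjusted p 0.074 to 0.11). The gene stayed rare, in 7.59% ± 0.992 of thinned TNFi Mmp3+ cells. Over all classes 2 of 40 pairs of member and class were called, both higher, against 2.33% of genes in Mmp3+, 0.254% in Il6+, 1.26% in Osteoblasts and 0 in Chondrocytes.

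Mmp13 was 1646, 1982 and 2360 CPM under TNFi against 1016, 1123 and 1473 CPM untreated. The ranges did not overlap, and the summed log2 difference of 0.81 ± 0.23 did not pass (adjusted p = 0.0554). It passed with the hashtag number as a block (0.81 ± 0.14, adjusted p = 0.026) and in other settings (adjusted p = 0.0097 with DESeq2, 0.013 without a low-count filter, 0.039 over 7 classes), and with library as a term the log2 difference was 0.03. In the Cd200+ class the collagenase passed: 4964, 6104 and 8071 CPM against 1415, 2438 and 2214 CPM, a log2 change of 1.79 ± 0.33 (adjusted p = 0.0159, where 1.07% of genes were called; 0.08 without untreated animal 1 and 0.057 without untreated animal 3). A thinned Mmp13 UMI was found in 62.6% ± 4.37 of TNFi Cd200+ cells. The difference of the TNFi effect between classes did not pass for Mmp13 (adjusted p = 0.275), so an effect particular to Cd200+ was not shown.

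Mmp3 stood at 16338, 15276 and 12439 CPM under TNFi. The untreated values lay inside this range, and the log2 difference was 0.07 ± 0.19 (95% interval -0.34 to 0.48, adjusted p = 0.863). Its Lining level was 21502, 16643 and 7534 CPM, so animal 3 was again low. Mmp2 (1443, 1489 and 1015 CPM; log2 0.35 ± 0.13, adjusted p = 0.123) passed only without TNFi animal 3 (0.50, 0.018). The other 4 members differed by -0.29 to -0.02 and did not pass.

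Under IL-17 inhibition, where 4.65% of genes were lower and 3.8% higher than in untreated arthritis (8.45% in all), 1 member was lower and 1 higher. Mmp3 stood at 6666, 5618 and 9448 CPM, below all 3 untreated animals (14479 to 15096 CPM) and above all healthy ones. The log2 change was -1.07 ± 0.19 (adjusted p = 0.00732), and it ran from -1.33 to -0.90 and was called when any 1 animal was left out. With library as a term it was -0.81 and not called, as was every gene between arthritic groups in that fit. Within the Mmp3+ class Mmp3 was 9287, 9517 and 14518 CPM against 24079, 22476 and 22536 CPM (log2 -1.15 ± 0.23, adjusted p = 0.01, where 6.41% of genes were called; 0.063 without IL-17i animal 2). In Pi16+ it was 216, 245.5 and 354 CPM against 999.8, 729 and 719 CPM (log2 -1.60 ± 0.28, adjusted p = 0.03, where 0.307% of genes were called), from 11 to 24 untreated cells per animal, and this call ended without any untreated animal or IL-17i animal 1 or 2 (0.077 to 0.12). Both groups lay under the Mmp3 of the endothelial barcodes of their own library (1199 CPM IL-17i, 1802 CPM untreated), which was lower in the same direction, so the Pi16+ difference is not read as expression. In Lining the 3 IL-17i animals had 4514, 4866 and 12254 CPM, all below the lowest untreated animal, and the log2 difference of -1.20 ± 0.49 did not pass (adjusted p = 0.323). These were the 2 pairs called of 45, against 0.495% of genes in Lining, 2.24% in Il6+, 1.48% in Cd200+, 0.234% in Chondrocytes and 0.594% in Osteoblasts. A difference of the effect between classes was not detected (adjusted p = 0.296). With untreated class shares the IL-17i levels gave 7624 ± 1803 CPM, close to the measured 7244 ± 1979 CPM (SD, n = 3).

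The gelatinase Mmp9 was 3.19, 3.79 and 2.94 CPM under IL-17i against 0.540, 1.51 and 1.83 CPM untreated. All IL-17i animals were higher (log2 1.20 ± 0.30, adjusted p = 0.0277). The call was lost without untreated animal 1 (0.059) or 2 (0.087), without IL-17i animal 1 (0.052), 2 (0.096) or 3 (0.054), and with the library term, where the sign turned (log2 -0.50). Mmp9 was seen in 499 of 21731 fibroblasts (2.30%). Within classes, mean Mmp9 was 4.31 against 1.85 CPM in Mmp3+ and 9.97 against 1.39 CPM in Cd200+ (IL-17i against untreated), and 26.1 against 13.7 CPM in Osteoblasts, where the gene was highest. All 6 osteoblast genes had higher means in IL-17i than in untreated fibroblasts. Bglap, which encodes osteocalcin, stood at 18.8 to 23.1 against 3.17 to 5.97 CPM, and Dmp1 at 0.680 to 7.21 against 0.211 to 0.427 CPM, while the 6 genes summed to 132 to 205 against 54.4 to 169 CPM, which overlapped. Their part in the Mmp9 difference was not tested. Of 4 leukocyte genes, Coro1a was higher under IL-17i (2.74 to 2.96 against 1.12 to 1.52 CPM) and the means of Ptprc, Cd52 and Laptm5 were lower, and their sum was 3.28 to 3.66 against 2.01 to 2.71 CPM. The 8 neutrophil genes were lower under IL-17i (25.7 to 32.1 CPM) than untreated (44.5 to 54.5 CPM), with Csf3r and Ngp at 0, and the 6 osteoclast genes overlapped (39.7 to 66.9 and 44.5 to 63.2 CPM), with Dcstamp at 0 in every arthritic group. Without cells that held a UMI of Ptprc or of a defining macrophage, neutrophil or osteoclast gene, mean Mmp9 was 3.25 CPM under IL-17i and 1.32 CPM untreated. Only 19 of the 499 fibroblasts with an Mmp9 UMI were such cells, so this filter could move the means little. The part of myeloid cells was not tested. The part of Coro1a was not tested.

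Mmp12 was 24.2, 20.3 and 46.3 CPM under IL-17i, overlapping untreated arthritis (log2 -0.79 ± 0.33, adjusted p = 0.158; -1.27 and 0.037 without IL-17i animal 3). Mmp13 was 1541, 1598 and 1334 CPM and also overlapped (log2 0.25 ± 0.23, 95% interval -0.23 to 0.74). The remaining 4 members differed by -0.49 to -0.07 and did not pass.

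**Figure D4:**
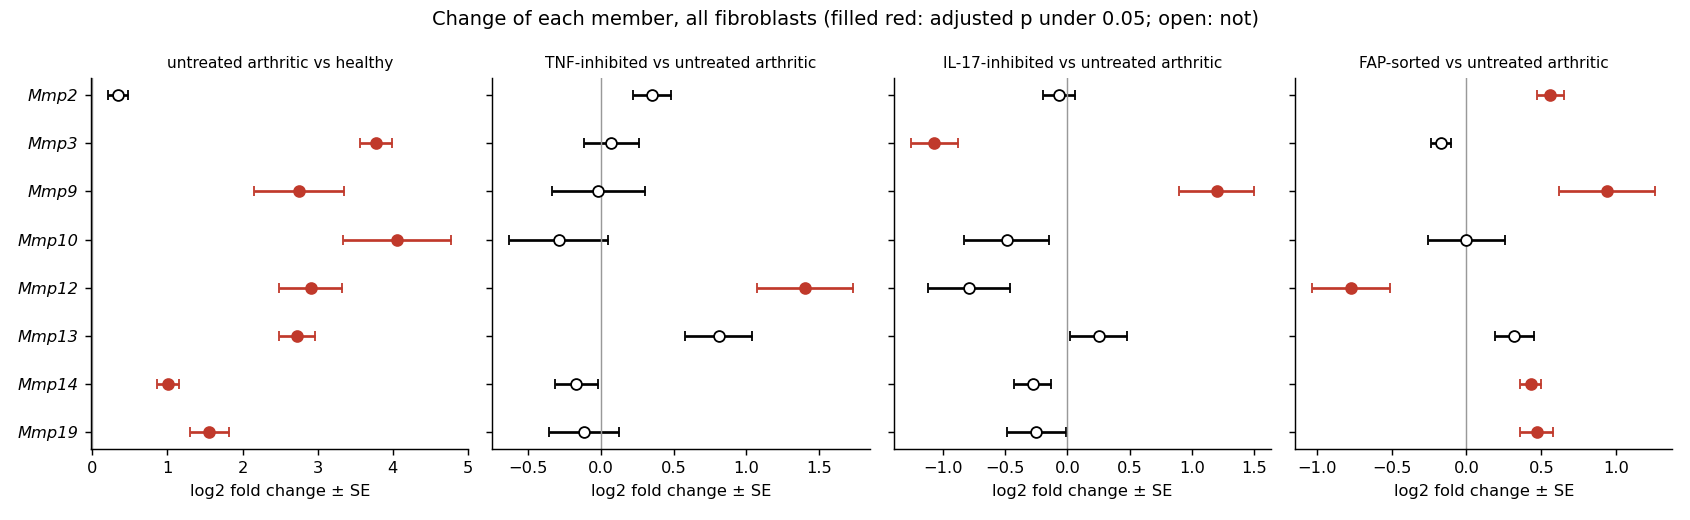
Log2 fold change of each MMP gene in summed fibroblasts with its SE, in 4 comparisons: untreated arthritic against healthy animals, then animals given TNFi, animals given IL-17i and FAP+ sorted animals, each against untreated arthritic. Filled red points passed an adjusted p of 0.05: 7 members in the first comparison, 1 in the second, 2 in the third and 5 in the fourth.

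The 2 inhibitors were compared with each other as well. Of 8 members, 2 were lower and 1 higher under IL-17i, where 3.05% of genes were lower and 4.54% higher (7.6% in all). Mmp3 was lower by log2 -1.14 ± 0.19 (adjusted p = 0.00409) and Mmp12 by -2.19 ± 0.34 (adjusted p = 0.00265), and for both genes all IL-17i animals lay below all TNFi animals. Mmp9 was higher by 1.22 ± 0.30 (adjusted p = 0.0269), a call lost without any TNFi animal (0.057 to 0.069) or IL-17i animal 1 (0.053) or 2 (0.1). The Mmp2 difference of -0.42 did not pass (adjusted p = 0.0709; 0.023 with DESeq2 and 0.0061 without TNFi animal 3). Within classes, Mmp12 was lower in Lining (log2 -4.41 ± 0.77, adjusted p = 0.00309, 6.65% of genes called) and in Mmp3+ (-1.80 ± 0.33, 0.00499, 7.18%). It was also lower in Il6+ (-3.18 ± 0.69, 0.046, 0.787%), but leaving out any of 5 animals ended that call (0.095 to 0.19). Mmp3 was lower in Mmp3+ (-1.01 ± 0.23, adjusted p = 0.0162; 0.081 without IL-17i animal 1 or 2) and in Cd200+ (-0.75 ± 0.17, 0.0262, 1.74%), where it did not pass without TNFi animal 1 (0.1) or IL-17i animal 1 (0.059), 2 (0.12) or 3 (0.14).

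Against the shared healthy animals, all 8 members were higher under TNFi, where 19.6% of genes were higher and 38.9% called, and 7 were higher under IL-17i, where 17.9% of genes were higher, 17.7% lower and 35.6% called. The log2 fold changes under TNFi and IL-17i were 3.85 and 2.71 for Mmp3, 3.53 and 2.97 for Mmp13, 4.32 and 2.13 for Mmp12, 0.84 and 0.72 for Mmp14 and 1.44 and 1.31 for Mmp19. Mmp2 passed under TNFi (0.69 ± 0.13, adjusted p = 0.00115) and not under IL-17i (0.27, 0.126). With library as a term 5 members remained called under TNFi and 4 under IL-17i, the lost calls being Mmp2 (adjusted p = 0.062), Mmp9 (0.078) and Mmp10 (0.07) under TNFi and Mmp10 (0.15), Mmp12 (0.13) and Mmp19 (0.13) under IL-17i. Without healthy animals 2 and 3 the Mmp14 calls ended (0.61, adjusted p = 0.051 and 0.47, 0.12). Within classes, 25 of 40 pairs were higher under TNFi, where the share of genes called was 20.9% in Lining, 6.09% in Mmp3+, 11.4% in Il6+, 8.01% in Cd200+, 8.65% in Chondrocytes and 6.45% in Osteoblasts. Under IL-17i 19 of 45 pairs were higher and 1 lower, where 9.91% of genes were called in Lining, 5.22% in Mmp3+, 9.9% in Il6+, 6.04% in Cd200+, 11.3% in Chondrocytes and 8.04% in Osteoblasts. The lower one was Mmp3 in Pi16+ (log2 -1.17 ± 0.27, adjusted p = 0.0231, where 3.33% of genes were called), at levels under the endothelial background, and it was lost without healthy animal 1 (0.13) or 2 (0.064) or IL-17i animal 1 (0.094) or 2 (0.077).

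FAP, a membrane protease of activated fibroblasts, and Pdpn, a glycoprotein of lining and stromal cells, were used to enrich cells of 5 further arthritic animals. Sort and library cannot be told apart here, and 42.9% of 13418 genes were called against untreated arthritis, 21.3% higher and 21.5% lower. Of the members, 4 were higher and 1 lower. Mmp2 stood at 1433, 1694, 1589, 1501 and 1339 CPM against 959 to 1195 CPM (log2 0.56 ± 0.09, adjusted p = 0.00106). Mmp14 stood at 398, 377, 441, 433 and 406 CPM against 315 to 327 CPM (0.43 ± 0.07, 0.000981), and Mmp19 at 105, 97.0, 111, 123 and 89.4 CPM against 76.9 to 87.4 CPM (0.47 ± 0.11, 0.00599). In these 3 genes every sorted animal was above every untreated one of the unsorted library, and the share of all genes that separated so was not counted. Mmp9 was higher (0.94 ± 0.32, 0.0353) and Mmp12 lower (-0.77 ± 0.26, 0.0324). The Mmp9 call was lost without untreated animal 1 (0.075) or 2 (0.079) or FAP-sorted animal 3 (0.068), 4 (0.052) or 5 (0.073) and with total-count scaling (0.054), and the Mmp12 call without untreated animal 2 (0.13) or 3 (0.12) or FAP-sorted animal 3 (0.064) with DESeq2 (0.07) and over 7 classes (0.081). Neutrophil markers summed to 101 to 130.2 CPM in the sorted fibroblasts against 44.5 to 54.5 CPM, and their part in the Mmp9 level was not tested.

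In the sorted animals the gradient of Mmp3 over classes was shallower. Mmp3 was lower in Mmp3+ (13363 to 16135 CPM; log2 -0.54 ± 0.07, adjusted p = 0.000488, 37.7% of genes called) and in Lining (8733 to 12204 CPM; -0.63 ± 0.12, 0.00597, 8.44%). It was higher in Il6+ (5531 ± 1032 CPM; 0.97 ± 0.14, 0.000547, 25.6%), in Pi16+ (2095, 2822, 2295, 2723 and 1403 CPM; 1.56 ± 0.21, 0.000473, 6.86%) and in Chondrocytes (0.69 ± 0.15, 0.0215, 2.54%; 0.11 without untreated animal 1 and 0.055 without FAP-sorted animal 3). Over all members, 12 of 41 pairs were higher and 3 lower in the sorted animals, the third lower one being Mmp12 in Mmp3+ (-1.19 ± 0.28, 0.00659), against 2.85% of genes called in Cd200+ and 1.05% in Osteoblasts. The level of free Mmp3 RNA was not read in this library, since only 4 endothelial barcodes were found, and its part in the rise of the low classes was not tested.

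MMP activity also depends on inhibitors and activating proteases, so other genes of the network were counted from lists of their known roles. Over all lists, 23 of 49 tested genes (46.9%) were called in untreated arthritis, beside 28.7% of all genes. The lists, too, were chosen with earlier results of these data known. Among 6 inhibitors, 1 rose and 4 fell. Timp1 rose by log2 1.37 ± 0.18 (adjusted p = 0.00011). Timp3, the matrix-bound inhibitor, changed by -2.41 ± 0.31 (9.03e-05), Reck, a membrane-anchored inhibitor, by -1.56 ± 0.17 (2.48e-05), the broad protease trap A2m by -3.17 ± 0.82 (0.0108) and Timp2, which also takes part in Mmp2 activation, by -0.42 ± 0.10 (0.00564). Timp4 did not pass (0.67 ± 0.76). Of 10 activators and partner proteases, 3 rose and 4 fell, with the urokinase receptor Plaur at -1.08 ± 0.27 and the serine protease Prss23 at -1.09 ± 0.20. Of 8 substrates 2 rose and 1 fell, the latter Fn1 (fibronectin, -1.29 ± 0.20). Of 15 other MMP genes listed, 14 were found by symbol, 6 had enough counts, and Mmp16 alone passed (-0.90 ± 0.23). Of 4 genes of collagen binding and turnover, Lrp1 and Bsg rose. Of 15 transcription regulators 2 rose (Runx1, Ets2) and 3 fell (Fosl1, Junb, Rela), and no Fos or Jun gene was called higher. These shares, 33.3% of the regulators and 37.5% of the substrates, were near the 28.7% of all genes, so they are no result about the lists.

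Of the 49 genes, 1 was called under TNFi (2.04%, beside 5.55% of all genes), 8 under IL-17i (16.3% beside 8.45%) and 7 between the inhibitors (14.3% beside 7.6%). Under TNFi only Mmp16 passed (-1.10 ± 0.23), and 0 of 6 inhibitors did by edgeR, with Timp2 (-0.26 ± 0.10) and A2m (2.15 ± 0.76) at an unadjusted p under 0.05. Under IL-17i none of the 6 inhibitors passed (Timp3 0.81 ± 0.30, adjusted p = 0.114, and Timp2 0.28 ± 0.10, 0.0954, had an unadjusted p under 0.05), while Fosb (-0.74 ± 0.14, 0.00825), Ets2 (-0.48 ± 0.08, 0.00636) and Nfkbiz (-0.34 ± 0.09, 0.0371) were lower of 15 regulators. Nfkbiz encodes a nuclear cofactor of NF-kB that IL-17 is known to induce. Fn1 and Prss23 were higher (0.86 and 0.69), and Lum, Dcn and Lrp1 lower (-0.53, -0.40 and -0.40). Between the inhibitors, Timp3 (1.40 ± 0.31, adjusted p = 0.015) and Timp2 (0.54 ± 0.10, 0.0058) were higher under IL-17i, as were Plat and Prss23 (0.68 and 0.75), with Lrp1, Dcn and Nfkbiz lower (-0.46, -0.43 and -0.35). In the FAP-sorted animals Acan (3.23), A2m (2.00), Mmp23 (1.55), Col1a1 (1.30) and Col3a1 (1.19) were higher, Plau (-1.28), Reck (-0.66) and Timp3 (-0.47) were lower, Timp2 was higher (0.33), and Timp1 (0.42 ± 0.22) and Timp4 (-0.90 ± 0.57) did not pass. Of 15 regulators 1 was higher and 9 were lower in the sorted animals, 66.7% beside the 42.9% of all genes called there (21.5% lower). Over all lists the share was 55.1%.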

How the data were processed

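Viable synovial cells of 17 hashtagged animals were measured in 4 droplet libraries of transcript 3′ ends; per the labels' protocols, the wells were loaded beyond the usual cell number, so droplets can hold cells of more than 1 animal. The deposited matrices hold raw counts of UMIs with no normalization, made with Cell Ranger 6.0.0, or 5.0.0 for the FAP+ sort, per the file headers. Version 6.0.6 and build mm10 are given per the submitters' processing notes. Cell filtering, hashtag calling and clustering are not given in the sources used here. Class, animal and library came from the authors' deposited per-cell annotation. No doublet caller was run, and annotated cells were used as deposited.

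Counts were summed per animal over the 5 fibroblast classes, or per class for animals with at least 10 cells, and edgeR's quasi-likelihood test (version 4.0.16 under R 4.3.3) was applied with TMM scaling, filterByExpr and Benjamini-Hochberg adjustment over all genes tested, at a threshold of 0.05. Every adjusted p is from these fits unless DESeq2 1.42.0 or another setting is named. Scripts were tested on simulated data. Hashtag numbers were checked for pairing by correlating same-numbered animals' deviations from their group means over genes. Untreated and TNFi animals correlated at 0.132, 0.273 and 0.167 for hashtags 1, 2 and 3, a weak hint only, since no label ties the animals. Untreated and FAP-sorted animals reached 0.353 and 0.303 for hashtags 2 and 3, so pairing was not established. Cells were thinned to 3000 UMIs for values per cell; 192, 86, 132 and 125 annotated cells of the untreated, TNFi, IL-17i and FAP-sorted libraries were shallower and left out of these. Alternatives were other scaling, filters, cells, a library term, and leaving out each animal; healthy cells with Xist alone, and the fit without healthy animals 2 and 3, were added after seeing the data. In the likeness measure 1 was added to each CPM before log2.

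The members and lists were chosen with earlier results of these data known. Named genes were the 8 members, all inhibitors, and the largest changes past the threshold in the network lists, at most 8 a comparison; Lrp1, Bsg, Mmp16, Runx1, Ets2, Fosl1, Junb and Rela against healthy, and Fn1, Mmp23, Plau and other single names beyond that number, were chosen after their values were seen. A gene of these lists is not reported here.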

Additional observations from a re-analysis of the deposited data

Results flagged for a closer look

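The difference between untreated arthritic and healthy animals itself differed between fibroblast classes for 3 of the 8 genes, by the class-by-group test over Lining, Mmp3+, Il6+ and Cd200+ (edgeR, animal as block). The adjusted p was 8.5e-07 for Mmp3, 3.05e-06 for Mmp2 and 0.001 for Mmp14. For Mmp3 the larger effect lay in Lining, and for Mmp2 and Mmp14 it lay in Mmp3+. The classes were clustered from these same cells and one is named for Mmp3. Healthy Mmp3 in Lining and Il6+ was in the range of the endothelial barcodes, so the Mmp3 p-value is read as a description. No animal stood apart from the 5 FAP-sorted ones by Dixon's criterion in any of the 8 genes, and groups of 3 were not tested.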

How the results depend on the processing

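The disease contrast was the steadiest: 7 members were called without any 1 animal and under each setting, with Mmp2 added by DESeq2, without a low-count filter and over 7 classes. Against untreated arthritis, the 1 member called under TNFi became 2 with DESeq2, without a low-count filter and over 7 classes, 0 with a library term, and 0 to 2 without 1 animal. The 2 called under IL-17i became 0 with a library term and 1 to 2 without 1 animal, and the 3 called between inhibitors became 0 with a library term. The 8 and 7 called against healthy under TNFi and IL-17i became fewer with a library term, which sets each group against the 1 healthy animal of its library. The fit with the healthy animal of the same library makes the same comparison and differs in the low-count filter. It is therefore no second check, here or for the genes called below. The 5 called in FAP-sorted animals ranged from 3 to 7 without 1 animal. With at least 30 cells, fewer of the called pairs of member and class could be tested and not all of those passed: 11 of 12 testable in place of 22 for untreated against healthy, 1 of 1 in place of 2 for IL-17i against untreated, 13 of 15 in place of 25 for TNFi and 12 of 12 in place of 20 for IL-17i against healthy. Without 1 animal the pairs called ranged from 0 to 2 for TNFi and from 1 to 2 for IL-17i against untreated, from 2 to 8 between inhibitors and from 9 to 15 for the FAP+ sort.

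Beyond TNFi against untreated, same-numbered deviations correlated at -0.065 to 0.148 (untreated and IL-17i), -0.312 to 0.128 (TNFi and IL-17i) and -0.09 to 0.353 (untreated and FAP-sorted). For hashtags 2 and 3 the last pair (0.353 and 0.303) exceeded untreated and TNFi (0.273 and 0.167), so pairing was not established for any groups. With a replicate block, 2 members were called for TNFi and 1 for IL-17i against untreated. The adjusted p of Mmp9 under IL-17i was then 0.051 against untreated and 0.06 against TNFi, those of Mmp12 and Mmp13 in sorted animals were 0.05 (not called) and 0.021 (called), and Mmp9 under TNFi was 0.033 on the log2 scale, with the sign turned.

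Other signs turned as follows. With total-count scaling these were Mmp3 under TNFi (-0.001), Mmp14 between inhibitors (0.011) and Mmp10 in sorted animals (-0.083). With the library term they were Mmp3 (-0.197) and Mmp14 (0.173) under TNFi, Mmp9 (-0.502) and Mmp14 (0.167) under IL-17i, and Mmp9 (-0.030) and Mmp13 (0.505) between inhibitors, the last from -0.551. Over 7 classes they were Mmp2 (0.013) and Mmp10 (0.322) under IL-17i, Mmp10 between inhibitors (0.684) and in sorted animals (-0.009), where it was -0.003 without a filter and -0.001 with hashtag-ranked cells. Without 1 animal, TNFi against untreated ran from -0.011 to 0.173 for Mmp3, -0.286 to 0.270 for Mmp9 and -0.427 to 0.168 for Mmp19, IL-17i against untreated from -0.140 to 0.001 for Mmp2, IL-17i against TNFi from -0.416 to 0.045 for Mmp10 and -0.417 to 0.178 for Mmp19, and the sort from -0.283 to 0.272 for Mmp10. The cause was not tested. Total-count scaling moved the median of all genes by -0.20 for untreated, -0.273 for TNFi and -0.155 for IL-17i against healthy and by 0.117 between inhibitors.

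Taking the mean over cells of each cell's CPM moved these class levels by over 1 SD: Mmp2 in untreated Lining (599.6) and Il6+ (884), Mmp3 in untreated Il6+ (2367) and Cd200+ (3277), Mmp13 in healthy Mmp3+ (1821), Il6+ (144) and Pi16+ (122), Mmp14 in healthy Chondrocytes (107) and untreated Mmp3+ (399), Cd200+ (258) and Chondrocytes (359.8), and Mmp19 in healthy Mmp3+ (23.8) and Chondrocytes (7.18).

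Genes called over the whole table moved by over 1.5 times in these cases. Untreated against healthy gave 4116, and 2317 with a library term, 2282 with the same library's healthy animal and 2259 without healthy animals 2 and 3. TNFi against untreated gave 797, 1448 with DESeq2, 105, 146 and 178 without untreated animals 1, 2 and 3 in turn, and 170 without TNFi animal 2. IL-17i against untreated gave 1212, 459, 326 and 496 without untreated animals 1, 2 and 3, and 754, 466 and 652 without IL-17i animals 1, 2 and 3. IL-17i against TNFi gave 1090, 1711 with total-count scaling, 473 without TNFi animal 2, and 682 and 495 without IL-17i animals 1 and 2. TNFi against healthy gave 5588, and 2788 and 2757 with the library term and the same library's animal; IL-17i against healthy gave 5115, and 1948 and 1861. Between arthritic groups the library term in edgeR left 0 genes in each of the 3 comparisons; at an unadjusted p under 0.05 there were 799 (TNFi), 1107 (IL-17i) and 1028 (between inhibitors), with 0, 1 and 1 of the members among them. Depth limits Mmp9 and Mmp10 most, with 4 and 2 healthy UMIs, and healthy classes of 15 to 49 cells.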

Other observations

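Within the Mmp3+ class, cells with an Mmp12 UMI held more Mmp3 than cells without one. After thinning to 3000 UMIs, means per cell were 92.7 ± 5.03 against 66.0 ± 3.10 Mmp3 UMIs in untreated arthritis (SD, n = 3), 91.8 ± 16.3 against 58.1 under TNFi, 75.6 ± 24.3 against 30.8 under IL-17i and 63.9 ± 10.1 against 42.3 in the sorted animals, higher in 14 of 14 animals. Cells with an Mmp13 UMI held more Mmp14 in the same class, also in 14 of 14 animals (1.44 against 0.984 UMIs untreated). Mmp3 did not go with Mmp13 in this class (66.4 against 68.4 UMIs untreated, higher in 7 of 14 animals), but in Lining untreated cells with an Mmp13 UMI held 67.0 Mmp3 UMIs against 37.8, higher in 11 of 14 arthritic animals. Cells of an animal are not replicates, and no test was made.

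Over 108 units of animal and class with at least 20 cells, the genes most like each member in log2 level were compared by Pearson's r, as a description; units share libraries, depth and animals. Mmp3 was most like Fth1 (0.841), Saa3 (0.808) and Cfb (0.798). Mmp13 was most like Tnn (0.865), Gpc1 (0.844) and Tsc22d1 (0.834), and Mmp12 most like Mmp3 itself (0.565), Eva1c (0.548) and Tcim (0.528). Mmp2 was most like Fndc1 (0.806), Crispld2 (0.771) and Mfap2 (0.769), Mmp14 like Col5a2 (0.788), C1qtnf6 (0.787) and Wipi1 (0.771), and Mmp19 like Lamb1 (0.741), P2rx4 (0.713) and Efemp2 (0.704). Mmp3 and Mmp13 had 0.226.

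In the TNFi library, animal 3 was the lowest of its group for 7 of the 8 members and the highest for the other, Mmp13. Its cells carried Xist in 94.4% and Y-linked UMIs in 4.70%, and those of TNFi animals 1 and 2 carried Y-linked UMIs in 80.9% and 86.2%, so sex and animal cannot be told apart in this group. Y-linked UMIs were also found in 58.3% of the cells of untreated animal 2 and 75.5% of IL-17i animal 1. In FAP-sorted animals 1 and 2 they were found in 74.3% and 73.1%. The remaining arthritic animals carried Xist in 92.1% to 96.6% of their cells. Mmp12 UMIs were held by 1417 of 21731 fibroblasts (6.52%), and the 10 highest cells held 19.4% of them, with up to 557 in 1 cell.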
